A study of Mus musculus with 16 samples.

Results

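The comparison set cultured wildtype spermatogonial stem cells against wildtype spermatogonia taken from the testis without culture, in mouse RNA-seq. Its members were the genes with an FPKM (a transcript's sequenced fragments, divided by its length and by the library's depth) of 1 or more in at least 2 of the 5 libraries, which were 3 cultures and 2 spermatogonia samples. The rule took 12611 of the 22293 genes listed once, and 5 of the 16 libraries of the series. The study profiled spermatogonia, cultured stem cells and adult spermatocytes from wildtype and knockout males, and its title names microRNA-202 as the subject. The 5 libraries came from male mice of strain C57;ICR carrying the wildtype genotype. Spermatogonia were isolated at 6-7 dpp (days after birth), and the cultures were started from cells of the same age and kept with the growth factors GDNF and bFGF. Culture time, passage, feeder cells, the isolation method and any pooling of animals are not stated in the labels. The 2 groups may differ in all of these at once, and what the medium did and what was selected by isolation or culture cannot be told apart. The replicates are biological per the series' design text, with no statement of whether each was a separate animal or culture.

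Spermatogonial stem cells divide in the seminiferous tubule to renew themselves or to form spermatogonia that differentiate. GDNF, made by somatic cells of the testis, signals through the receptor RET and its partner GFRA1 on these cells, and bFGF (FGF2) signals through FGF receptors to the ERK and PI3K pathways. Both factors keep the ETS factor ETV5 and other stem cell genes on, while retinoic acid starts differentiation, marked by the receptor KIT and by STRA8.

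The labels were first checked against markers. Germ cell genes were present in all 5 libraries, with Ddx4, the germ cell RNA helicase, at 60.02 and 71.9 FPKM in spermatogonia and 98.5, 68.6 and 87.7 FPKM in the cultures. The spermatogonia libraries also held transcripts of testis somatic cells, such as Sertoli cell Amh at 217 and 152 FPKM in spermatogonia and 0.461, 0.387 and 0.0506 FPKM in the cultures. In bulk RNA, fewer cells of a type and less RNA per cell cannot be told apart. Libraries correlated within a group across genes (Pearson r of 0.9875 between the spermatogonia, and 0.960 to 0.984 between cultures), and less between groups (0.811 to 0.835). Culture replicate 3 stood somewhat apart, with an FPKM sum of 363005 against 292882 and 297260 in the other cultures and a ribosomal protein sum of 24750 FPKM against 14843 and 14318. Relative depth, read from the steps of low values, lay between 0.733 and 1 of that of spermatogonia replicate 1, and absolute depth is not known here. Mir202, the precursor of the microRNA in the title, was listed at 0 in all 5 libraries, as were all but 2 of 591 microRNA precursor symbols.

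Of the 12611 genes, 3893 (30.9%) were higher in the cultures and 2860 (22.7%) lower by limma's test with Benjamini-Hochberg adjustment over all members, at a threshold of 0.05. Without spermatogonia replicate 1 the higher genes numbered 2591. Changes are given as the difference in mean log2(FPKM + 1), culture minus spermatogonia, a scale that understates the change of low genes, and the ± after a change is its SE. On it 1252 genes were higher by 1 or more and 1351 lower, and by 3 or more 63 were higher and 159 lower. The libraries of the 2 groups did not overlap for 66.9% of all members and for 98.6% of those called. Of the members, 10535 reached FPKM 1 in all 5 libraries. Another 698 entered through the cultures alone and 613 through spermatogonia alone, and these had to differ by the choice of members, so the gene list counts below are descriptions. The median change over all members was 0.13.

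FPKM are shares of a library's RNA, and the reference chosen decides many directions. With every spermatogonia and culture library scaled to the same mean level of 16 germ cell genes, the median change fell by 0.83, and 934 genes (7.41%) were higher and 8033 (63.7%) lower. Counts under this germ cell scaling are therefore given beside each list, and every count is to be read against the shares called over all members. Quantile normalization called 31% higher and 26.1% lower, and median-ratio scaling 26% and 24.3%, and no list's count in either direction moved by more than 5 members under these.

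Genes of stem and undifferentiated spermatogonia were mostly higher in the cultures. Of 31 members tested, 22 were higher and 2 lower, with a median of 1.13 (12 higher and 9 lower with germ cell scaling, median 0.38). Gfra1, the GDNF co-receptor, was at 18.9 and 21.7 FPKM in spermatogonia and 70.2, 62.6 and 39.3 FPKM in the cultures, and Ret, its signalling partner, was at 20.1 and 22.6 FPKM in spermatogonia and 74.5, 83.6 and 51.2 FPKM in the cultures. All 3 cultures lay above both spermatogonia libraries for either receptor gene, and culture 3 was the lowest of them. The changes were 1.42 ± 0.22, limma adjusted p = 9.6e-05 for Gfra1, and 1.63 ± 0.17, limma adjusted p = 2.1e-06 for Ret.

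Among transcription factors and RNA-binding proteins that maintain these cells, the size of the change varied. Nanos2, a translational repressor that blocks differentiation, was at 0.662 and 0.830 FPKM in spermatogonia and 12.4, 9.10 and 14.5 FPKM in the cultures, a change of 2.88 ± 0.17, limma adjusted p = 4.9e-09. Nanos3, its relative needed for primordial germ cell survival, was at 7.49 and 7.29 FPKM in spermatogonia and 24.3, 53.2 and 119 FPKM in the cultures. The cultures did not overlap spermatogonia for either gene, but for Nanos3 they ranged widely among themselves, and the change was 2.71 ± 0.43, limma adjusted p = 1.1e-04. Lhx1, a LIM homeobox factor that GDNF induces, was at 1.67 and 1.501 FPKM in spermatogonia and 25.1, 33.9 and 18.2 FPKM in the cultures, with a change of 3.33 ± 0.20, limma adjusted p = 5.8e-09. Id4, an inhibitor of helix-loop-helix factors and a stem cell marker, was at 12.01 and 12.3 FPKM in spermatogonia and 30.4, 35.6 and 54.1 FPKM in the cultures (1.60 ± 0.22, limma adjusted p = 2.5e-05). Zbtb16 (PLZF), required for self-renewal, was at 13.6 and 16.3 FPKM in spermatogonia and 59.9, 51.1 and 25.97 FPKM in the cultures (1.47 ± 0.25, limma adjusted p = 2.0e-04), and no longer passed with germ cell scaling (0.60, adjusted p = 0.074). Culture replicate 3 was the lowest culture for Zbtb16 and the highest for Nanos3 and Id4.

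Some factors shared with early embryonic cells were also higher, while the pluripotency list given further below moved both ways. Pou5f1 (OCT4) was at 17.5 ± 2.80 FPKM in spermatogonia and 52.0 ± 6.55 FPKM in the cultures (SD, n = 2 and n = 3 here and below), a change of 1.52 ± 0.22, limma adjusted p = 5.3e-05. Eomes, a T-box factor, was at 0.245 and 0.611 FPKM in spermatogonia and 3.68, 4.25 and 3.33 FPKM in the cultures (1.74 ± 0.20, limma adjusted p = 5.0e-06). T (Brachyury), of the same family, was at 0.411 and 0.618 FPKM in spermatogonia and 8.66, 5.05 and 6.404 FPKM in the cultures (2.32 ± 0.37, limma adjusted p = 1.1e-04). Tcl1, a co-activator of AKT, changed by 2.54 ± 0.26, limma adjusted p = 1.4e-06. Plvap, a caveolar protein also found on endothelium and listed here as a stem cell gene, was at 1.94 and 2.48 FPKM in spermatogonia and 52.2, 35.1 and 47.2 FPKM in the cultures, and its change of 3.82 was the largest in the list. Ccnd2, a D-type cyclin, changed by 1.27 ± 0.14, limma adjusted p = 3.4e-06, and did not pass with germ cell scaling (0.38).

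Some of the best known members differed little. Foxo1, a factor of the PI3K pathway, was at 28.9 ± 0.582 FPKM in spermatogonia and 28.3 ± 2.07 FPKM in the cultures, Lin28a, an RNA-binding protein of undifferentiated spermatogonia, at 27.8 ± 1.56 FPKM in spermatogonia and 27.4 ± 3.18 FPKM in the cultures, and Sox3 at 28.4 ± 2.89 FPKM in spermatogonia and 28.7 ± 6.18 FPKM in the cultures. None of these 3 passed (limma adjusted p of 0.86 to 0.99), and all were lower with germ cell scaling (-0.91, -0.91 and -0.89). Sall4, a zinc finger factor, changed by 0.51 ± 0.17, limma adjusted p = 0.021, and its sign turned with germ cell scaling (-0.37, adjusted p = 0.03). Its call was also lost without spermatogonia replicate 1 and without culture replicate 3. Neurog3, which marks progenitors leaving the stem cell state, was at 0.367 and 0.631 FPKM in spermatogonia and 0.101, 0.127 and 0.166 FPKM in the cultures, below the filter. The 2 members that were lower were Gata2, at 2.10 ± 0.863 FPKM in spermatogonia and 0.653 ± 0.159 FPKM in the cultures, and Gpr125, an adhesion receptor, at 33.4 ± 5.33 FPKM in spermatogonia and 19.5 ± 4.22 FPKM in the cultures. Their changes were -0.88 ± 0.21 and -0.76 ± 0.19 (SE). Gata2 did not pass without spermatogonia replicate 2, nor Gpr125 without spermatogonia replicate 1.

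**Figure D1:**
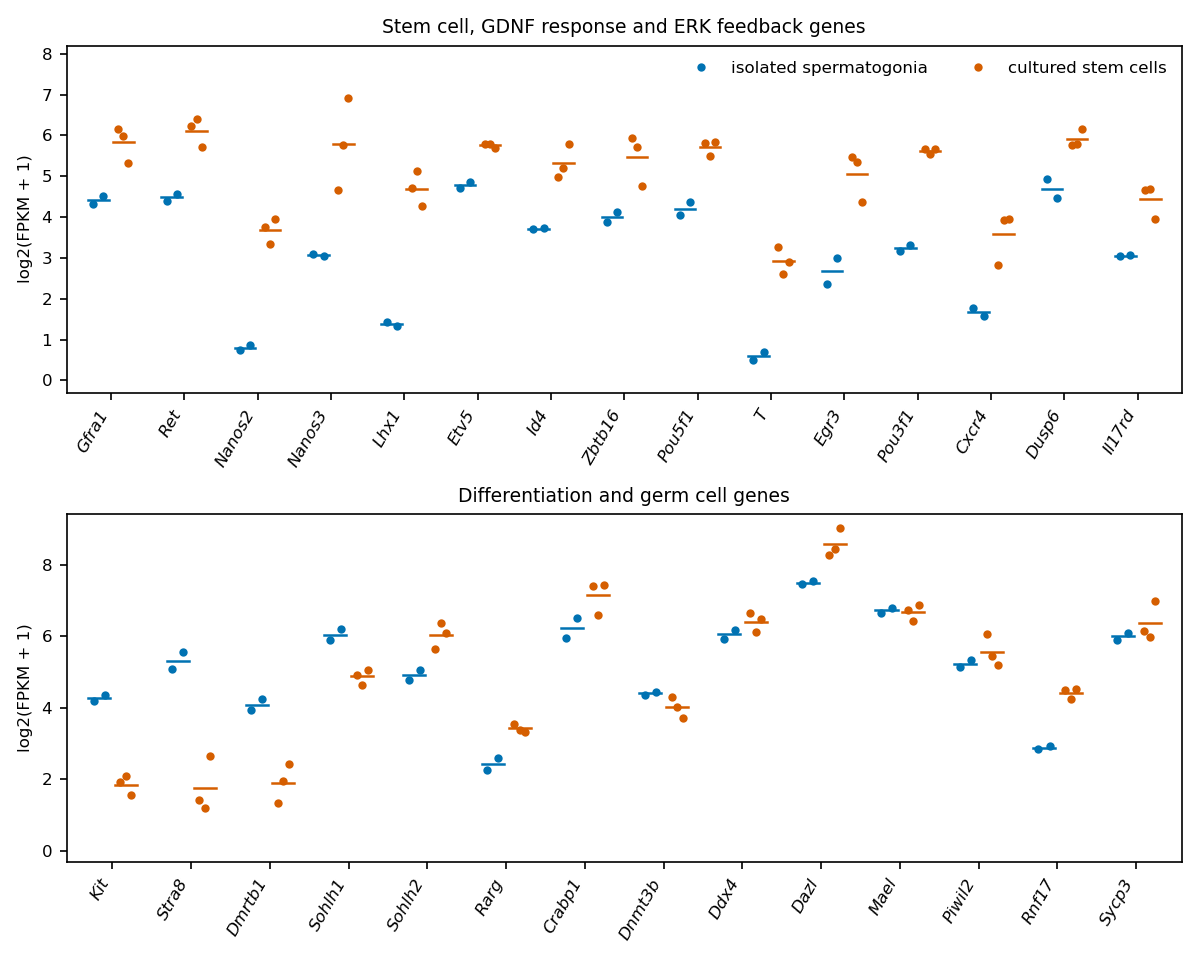
Level of stem cell, GDNF response and feedback genes (top) and of differentiation and germ cell genes (bottom) as log2(FPKM + 1), 1 point per wildtype library and a line at each group mean. Nanos2, Lhx1, T and Pou3f1 separate widely with cultures above, Kit, Stra8 and Dmrtb1 with spermatogonia above, and Mael, Piwil2 and Sycp3 overlap.

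Genes known to respond to GDNF were higher in 14 of 16 tested, with none lower and a median of 1.24 (7 higher and 2 lower with germ cell scaling). This list shares members with the stem cell list, among them Nanos2, Lhx1, Id4 and Ccnd2, so its count is not a separate result. Pou3f1, a POU factor induced by GDNF, was at 7.96 and 8.95 FPKM in spermatogonia and 49.6, 45.3 and 49.8 FPKM in the cultures. The cultures lay within 5 FPKM of each other, far above spermatogonia, and the change was 2.38 ± 0.17, limma adjusted p = 2.6e-08. Egr3, an early growth response factor, was at 4.14 and 6.97 FPKM in spermatogonia and 43.4, 39.4 and 19.8 FPKM in the cultures (2.38 ± 0.36, limma adjusted p = 6.7e-05). Cxcr4, the receptor for CXCL12, was at 2.42 and 1.98 FPKM in spermatogonia and 6.14, 14.3 and 14.5 FPKM in the cultures (1.90 ± 0.26, limma adjusted p = 2.6e-05). Etv5 was at 24.98 and 27.8 FPKM in spermatogonia and 54.7, 54.6 and 50.4 FPKM in the cultures, with 1 tight cluster of cultures above spermatogonia and a change of 0.99 ± 0.18, limma adjusted p = 2.9e-04. Bcl6b, a zinc finger repressor downstream of GDNF, was at 13.9 and 12.2 FPKM in spermatogonia and 31.04, 18.2 and 25.5 FPKM in the cultures (0.86 ± 0.27, limma adjusted p = 0.014). With germ cell scaling the changes of Etv5 and Bcl6b were 0.10 and -0.01 and did not pass, and the call on Bcl6b was also lost without spermatogonia replicate 2 or culture replicate 1. Egr2 was at 17.5 ± 1.30 FPKM in spermatogonia and 23.98 ± 3.02 FPKM in the cultures and did not pass (limma adjusted p = 0.12).

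The receptors and kinases that carry GDNF and FGF signals were higher in 8 of 30 and lower in 10 (5 and 21 with germ cell scaling), with a median of 0.03. These counts are near the shares over all members, 30.9% higher and 22.7% lower. Fgfr1, a receptor for bFGF, was at 13.2 and 16.1 FPKM in spermatogonia and 52.4, 41.8 and 37.3 FPKM in the cultures. All cultures were above both spermatogonia libraries, by 1.51 ± 0.15, limma adjusted p = 1.0e-06. Fgfr2 was low and went the other way, at 1.94 and 2.51 FPKM in spermatogonia and 0.725, 1.13 and 0.787 FPKM in the cultures (-0.78 ± 0.12, limma adjusted p = 8.4e-05). Fgfr3 was at 1.36 ± 0.387 FPKM in spermatogonia and 1.27 ± 0.186 FPKM in the cultures and did not pass (limma adjusted p = 0.81). Pik3cd, a catalytic PI3K subunit, was at 7.05 and 9.18 FPKM in spermatogonia and 44.3, 49.8 and 27.5 FPKM in the cultures (2.16 ± 0.24, limma adjusted p = 2.8e-06).

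Feedback targets of ERK moved both ways, with 13 of 24 higher and 6 lower, and a median of 0.54. With germ cell scaling 2 were higher and 11 lower. Dusp6, the phosphatase that acts on ERK, was at 29.6 and 20.95 FPKM in spermatogonia and 53.5, 54.6 and 70.0 FPKM in the cultures (1.21 ± 0.18, limma adjusted p = 6.7e-05), and did not pass with germ cell scaling (0.32). Il17rd (SEF), an inhibitor of FGF signalling, changed by 1.38 ± 0.18, limma adjusted p = 1.4e-05, and Ccnd1, cyclin D1, by 1.64 ± 0.19, limma adjusted p = 5.0e-06. Spry4, a Sprouty inhibitor, and Etv4, an ETS factor, changed by 0.79 ± 0.14 and 0.71 ± 0.16 (SE), and the sign of both turned with germ cell scaling (-0.07 and -0.17). Among the lower members, Egr1, an early growth response factor, was at 291 and 305 FPKM in spermatogonia and 128, 104.6 and 102 FPKM in the cultures, Myc at 13.3 ± 2.53 FPKM in spermatogonia and 3.20 ± 1.03 FPKM in the cultures, and Etv1, an ETS factor, at 2.54 ± 0.868 FPKM in spermatogonia and 0.339 ± 0.158 FPKM in the cultures. Their changes were -1.42 ± 0.23, -1.79 ± 0.31 and -1.39 ± 0.14 (SE), each past the threshold.

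Of the genes of differentiating spermatogonia, 7 of 19 were higher and 6 lower, with a median of -0.02 (1 higher and 11 lower with germ cell scaling, and 4 and 5 without culture replicate 3). These counts are near the shares over all members, 30.9% higher and 22.7% lower. The lower members included Kit, Stra8, Dmrtb1 and Sohlh1. Kit, the receptor for KIT ligand, was at 17.2 and 19.5 FPKM in spermatogonia and 2.78, 3.24 and 1.93 FPKM in the cultures. No culture reached the level of spermatogonia, and the change was -2.42 ± 0.22, limma adjusted p = 4.9e-07. Stra8, induced by retinoic acid before meiosis, was at 33.1 and 45.8 FPKM in spermatogonia and 1.68, 1.32 and 5.28 FPKM in the cultures, with culture 3 the highest of the cultures and a change of -3.56 ± 0.50, limma adjusted p = 3.1e-05. Dmrtb1 (DMRT6), which controls the step from mitosis to meiosis, was at 14.2 and 17.9 FPKM in spermatogonia and 1.52, 2.84 and 4.36 FPKM in the cultures (-2.19 ± 0.27, limma adjusted p = 8.2e-06). Sohlh1, a helix-loop-helix factor of differentiation, was at 58.3 and 72.4 FPKM in spermatogonia and 29.2, 24.02 and 32.5 FPKM in the cultures (-1.17 ± 0.23, limma adjusted p = 5.4e-04).

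Other members of the list were higher. Sohlh2, the partner of Sohlh1, was at 26.4 and 32.0 FPKM in spermatogonia and 48.6, 81.2 and 66.9 FPKM in the cultures (1.12 ± 0.35, limma adjusted p = 0.015), opposite in sign to Sohlh1. Rarg, the retinoic acid receptor of differentiating spermatogonia, was at 4.43 ± 0.900 FPKM in spermatogonia and 9.75 ± 0.842 FPKM in the cultures (0.99 ± 0.24, limma adjusted p = 0.003). Crabp1, a cytosolic retinoic acid binder, was at 60.6 and 90.0 FPKM in spermatogonia and 169, 95.3 and 172 FPKM in the cultures (0.92 ± 0.32, limma adjusted p = 0.027). These 3 genes did not pass with germ cell scaling or without spermatogonia replicate 1, and Crabp1 also not without culture replicate 1 or 3, nor Sohlh2 without culture replicate 2. Dnmt3b, a DNA methyltransferase that rises in differentiation, was at 20.2 ± 0.966 FPKM in spermatogonia and 15.4 ± 3.38 FPKM in the cultures, a change of -0.39 ± 0.16, limma adjusted p = 0.046, which did not pass in 9 of the other settings, among them without either spermatogonia library.

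Enzymes and carriers of retinoic acid were lower more often than higher, at 9 and 5 of 19 tested (12 and 2 with germ cell scaling), with a median of -0.14. Aldh1a1, a retinoic acid synthesizing dehydrogenase of Sertoli cells, was at 281 and 186 FPKM in spermatogonia and 0.513, 1.30 and 0.363 FPKM in the cultures, a change of -7.09 ± 0.40, limma adjusted p = 2.7e-09. Cyp26b1, which degrades retinoic acid, was at 20.04 and 18.8 FPKM in spermatogonia and 0.5, 0.585 and 0.212 FPKM in the cultures (-3.84 ± 0.22, limma adjusted p = 2.4e-09). Stra6, the membrane receptor for retinol-binding protein, was at 8.16 and 7.13 FPKM in spermatogonia and 0.0694, 0.0586 and 0.0511 FPKM in the cultures (-3.03 ± 0.14, limma adjusted p = 4.2e-10). Aldh1a2 was at 16.96 ± 1.23 FPKM in spermatogonia and 3.56 ± 1.198 FPKM in the cultures (-2.01 ± 0.17, limma adjusted p = 2.1e-07). Aldh1a3 was the exception among the synthesizing enzymes, at 1.01 and 1.60 FPKM in spermatogonia and 5.36, 5.98 and 5.78 FPKM in the cultures (1.55 ± 0.19, limma adjusted p = 8.1e-06). In these libraries Sertoli cell transcripts moved with most of these genes (26 of 29 Sertoli genes lower, summed level 3576 and 2580 FPKM in spermatogonia and 380 to 440 FPKM in cultures), and their part in the result was not tested.

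Germ cell identity genes were higher in 20 of 34 tested and lower in 2, with a median of 0.75. With germ cell scaling, which uses 16 of these genes, 8 were higher and 11 lower. Their summed level was 1046 and 1180 FPKM in spermatogonia and 1740, 1637 and 2246 FPKM in the cultures. Elavl2, an RNA-binding protein, was at 8.09 and 8.14 FPKM in spermatogonia and 29.9, 48.1 and 55.9 FPKM in the cultures (2.28 ± 0.21, limma adjusted p = 4.9e-07). Cpeb1, which controls poly(A) tails, was at 4.14 ± 0.384 FPKM in spermatogonia and 21.6 ± 2.52 FPKM in the cultures (2.13 ± 0.28, limma adjusted p = 1.9e-05). Rnf17 and Tdrd7, Tudor proteins of germ granules, changed by 1.54 ± 0.14 and 1.46 ± 0.13 (SE), and Tex14, needed for the bridges between germ cells, by 1.33 ± 0.14 (SE), all past the threshold. Dazl, an RNA-binding protein that licenses gametogenesis, was at 176 and 185 FPKM in spermatogonia and 305, 347 and 516 FPKM in the cultures (1.07 ± 0.34, limma adjusted p = 0.016), and did not pass without spermatogonia replicate 1, without spermatogonia replicate 2, without culture replicate 3 or with germ cell scaling (0.16).

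Some widely used markers did not pass the test. Ddx4, with the values above, did not pass (limma adjusted p = 0.094), nor did Mael (limma adjusted p = 0.82) and Piwil2 (limma adjusted p = 0.28), both of the piRNA pathway. Mael was at 105.1 ± 7.10 FPKM in spermatogonia and 103 ± 16.4 FPKM in the cultures, and Piwil2 at 36.8 ± 3.48 FPKM in spermatogonia and 48.1 ± 15.7 FPKM in the cultures. The 2 lower members were Pld6, a mitochondrial protein of piRNA processing, at 13.8 and 18.9 FPKM in spermatogonia and 5.03, 4.37 and 4.91 FPKM in the cultures, and Figla, a helix-loop-helix factor best known from oocytes, at 5.75 ± 1.13 FPKM in spermatogonia and 2.16 ± 0.602 FPKM in the cultures. Their changes were -1.58 ± 0.20 and -1.10 ± 0.23 (SE), and limma adjusted p was 9.7e-06 and 9.2e-04.

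Meiosis genes were higher in 12 of 31 tested and lower in 3, with a median of 0.47 (2 and 10 with germ cell scaling). Rad21l, a meiotic cohesin subunit, changed by 1.44 ± 0.16, limma adjusted p = 2.7e-06, and Syce1, of the synaptonemal complex, by 0.85 ± 0.13, limma adjusted p = 9.5e-05, which was -0.02 with germ cell scaling. Sycp3, its axial element protein, was at 58.8 and 67.5 FPKM in spermatogonia and 69.2, 61.7 and 127 FPKM in the cultures, overlapping between groups (limma adjusted p = 0.34). Of 25 spermatid genes 8 were tested and 1 was lower (4 with germ cell scaling).

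Pluripotency genes were higher in 12 of 21 tested and lower in 5 (7 and 8 with germ cell scaling), with a median of 0.59. Nr5a2, a nuclear receptor that can stand in for OCT4 in reprogramming, was at 2.83 and 2.66 FPKM in spermatogonia and 18.5, 15.4 and 14.1 FPKM in the cultures (2.17 ± 0.15, limma adjusted p = 1.9e-08). Klf5 was at 10.6 and 6.16 FPKM in spermatogonia and 1.64, 1.12 and 1.17 FPKM in the cultures (-1.99 ± 0.24, limma adjusted p = 6.2e-06), with both spermatogonia libraries above the cultures. Nanog was at most 0.193 FPKM in any of the 5 libraries. Sox2 was at 0.0240 and 0.106 FPKM in spermatogonia and 2.19, 0.899 and 0.915 FPKM in the cultures. Neither passed the filter.

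Sertoli cell genes had the largest median change of the lists. Of 29 tested, 26 were lower in the cultures and 1 higher, with a median of -4.74 (28 lower and 1 higher with germ cell scaling), and 2 of the 32 genes found were at 0 in all 3 cultures. Of those tested, 17 reached FPKM 1 in spermatogonia alone. Amh, the hormone that removes the Müllerian duct, had the values above, a change of -7.15 ± 0.24, limma adjusted p = 1.7e-11. Inha, the inhibin alpha chain, was at 334 and 245 FPKM in spermatogonia and 1.02, 0.946 and 0.648 FPKM in the cultures (-7.26 ± 0.30, limma adjusted p = 1.1e-10). Fshr, the receptor for follicle stimulating hormone, was at 9.47 and 5.66 FPKM in spermatogonia and 0, 0 and 0 FPKM in the cultures, so it was listed at 0 in every culture (limma adjusted p = 5.0e-10). Clu, the secreted protein clusterin, was at 984 and 647 FPKM in spermatogonia and 4.44, 8.35 and 2.39 FPKM in the cultures (-7.16 ± 0.67, limma adjusted p = 5.3e-07). Rhox8, a homeobox gene of Sertoli cells, was at 143 and 112 FPKM in spermatogonia and 0.0682, 0.0569 and 0 FPKM in the cultures.

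Other Sertoli genes kept more signal. Wt1 was at 62.6 and 44.7 FPKM in spermatogonia and 1.36, 0.797 and 0.788 FPKM in the cultures (-4.78 ± 0.31, limma adjusted p = 1.1e-08). Sox9, the factor that fixes Sertoli cell fate and is also used by cartilage and other tissues, was at 25.01 and 19.4 FPKM in spermatogonia and 6.399, 7.37 and 6.47 FPKM in the cultures (-1.58 ± 0.17, limma adjusted p = 2.4e-06). Trf, transferrin, was the 1 higher member, at 3.96 and 5.004 FPKM in spermatogonia and 31.9, 26.1 and 31.7 FPKM in the cultures (2.50 ± 0.25, limma adjusted p = 1.2e-06), and is made in many cell types. The summed level of the list was 3576 and 2580 FPKM in spermatogonia and 389, 380 and 440 FPKM in cultures.

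Leydig cell genes were lower in 15 of 17 tested and higher in 2, with a median of -2.44 (15 and 1 with germ cell scaling), and 5 of the 20 listed were at 0 in all 3 cultures. Of those tested, 9 reached FPKM 1 in spermatogonia alone. Insl3, the hormone of testis descent, was at 120.2 and 82.03 FPKM in spermatogonia and 4.2e-07, 0.257 and 0.808 FPKM in the cultures (-6.25 ± 0.73, limma adjusted p = 5.1e-06). Hsd17b3, which makes testosterone, was at 42.7 and 39.2 FPKM in spermatogonia and 0.0630, 0.158 and 0 FPKM in the cultures (-5.29 ± 0.13, limma adjusted p = 2.3e-12), while Cyp17a1, an earlier enzyme of the pathway, was at 20.1 and 3.70 FPKM in spermatogonia and 0, 0 and 0 FPKM in the cultures, listed at 0 in every culture (limma adjusted p = 5.7e-04). Cyp11a1, which starts steroid synthesis from cholesterol, and Star, the cholesterol carrier, kept some signal. Cyp11a1 was at 21.98 and 10.4 FPKM in spermatogonia and 1.59, 3.35 and 0.612 FPKM in the cultures, and Star at 10.9 and 7.03 FPKM in spermatogonia and 2.86, 2.34 and 2.06 FPKM in the cultures (-1.52 ± 0.24, limma adjusted p = 1.0e-04). Thbs2, an extracellular glycoprotein also made by fibroblasts, was 1 of the 2 higher members, at 5.08 and 9.04 FPKM in spermatogonia and 60.95, 28.4 and 33.6 FPKM in the cultures (2.35 ± 0.41, limma adjusted p = 2.3e-04). The summed level was 733 and 642 FPKM in spermatogonia and 163 to 204 FPKM in the cultures.

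Peritubular myoid genes were lower in 10 of 17 and higher in 1, with a median of -0.78 (13 and 1 with germ cell scaling). Myh11, smooth muscle myosin, was at 6.02 and 7.52 FPKM in spermatogonia and 0.815, 0.262 and 0.240 FPKM in the cultures (-2.45 ± 0.20, limma adjusted p = 1.7e-07). Pdlim3 and Casq2, muscle proteins of the Z-disc and calcium store, changed by -4.51 ± 0.19 and -3.46 ± 0.20 (SE). Acta2, smooth muscle actin, was still at 87.0 and 127 FPKM in spermatogonia and 43.7, 29.5 and 43.3 FPKM in the cultures (-1.43 ± 0.43, limma adjusted p = 0.012), with all cultures below both spermatogonia libraries and no call without spermatogonia replicate 2. Cald1, caldesmon, which fibroblasts also express, was the higher member (1.49 ± 0.24, limma adjusted p = 1.3e-04).

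Endothelial genes were sparse, with 10 of 19 tested, of which 3 were higher and 5 lower (2 and 7 with germ cell scaling). Cdh5, the endothelial cadherin, was at 6.73 and 9.30 FPKM in spermatogonia and 1.28, 0.563 and 0.426 FPKM in the cultures (-2.38 ± 0.24, limma adjusted p = 1.1e-06). Pecam1 was at 1.68 ± 0.278 FPKM in spermatogonia and 1.83 ± 0.550 FPKM in the cultures, overlapping between groups (limma adjusted p = 0.78). Flt1, a VEGF receptor, was at 0.573 and 0.645 FPKM in spermatogonia and 11.1, 8.76 and 4.92 FPKM in the cultures (2.46 ± 0.24, limma adjusted p = 8.1e-07), so these 3 endothelial markers did not move together. Of the erythroid list 1 gene was tested, which was higher and did not pass with germ cell scaling. Hbb-b1, whose copies share reads, was at 3.83 FPKM in spermatogonia replicate 2 and at under 0.001 FPKM in the other 4 libraries.

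Transcription factors of gonadal somatic cells were lower in 17 of 24 tested and higher in 4, with a median of -1.58 (19 and 1 with germ cell scaling), and 9 of those tested reached FPKM 1 in spermatogonia alone. Gata4, which acts in Sertoli and Leydig cells, was at 71.8 and 52.9 FPKM in spermatogonia and 0.312, 0.299 and 0.161 FPKM in the cultures (-5.64 ± 0.17, limma adjusted p = 8.7e-12). Nr5a1 (SF1), the regulator of steroid genes, was at 38.4 and 30.2 FPKM in spermatogonia and 0.0242, 0.143 and 0.0803 FPKM in the cultures (-5.02 ± 0.25, limma adjusted p = 7.2e-10). Gata6 was at 14.9 ± 3.96 FPKM in spermatogonia and 0.698 ± 0.0798 FPKM in the cultures (-3.21 ± 0.16, limma adjusted p = 5.3e-10). The interstitial progenitor factors Tcf21 and Nr2f2 were lower as well. Tcf21 was at 19.13 and 28.5 FPKM in spermatogonia and 0, 0.167 and 0 FPKM in the cultures (-4.53 ± 0.19, limma adjusted p = 1.5e-10). Nr2f2 was at 7.59 ± 2.68 FPKM in spermatogonia and 0.999 ± 0.0790 FPKM in the cultures (-2.07 ± 0.17, limma adjusted p = 1.5e-07).

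**Figure D2:**
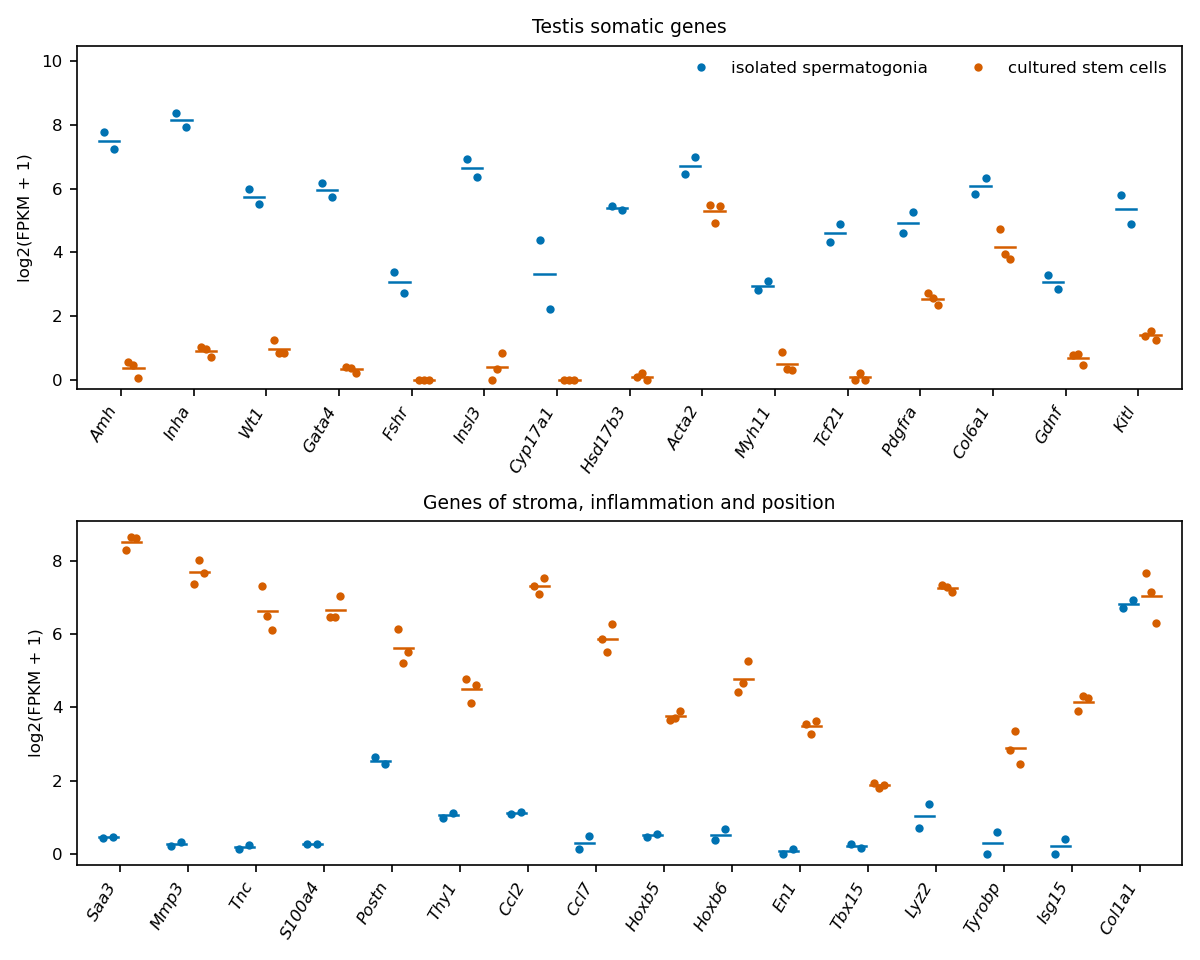
Level of genes of testis somatic cells (top) and of genes of stroma, inflammation and position along the body (bottom) as log2(FPKM + 1), 1 point per wildtype library and a line at each group mean. For the genes drawn, every culture lies below both spermatogonia libraries in the top panel. In the bottom panel every culture lies above them except for Col1a1, whose groups overlap. The separation reflects the choice of genes. Pdgfra and Col6a1 in the top panel are of the fibroblast list. Genes of the same lists that went the other way are not drawn, such as Trf, Thbs2, Cald1, Hoxd8, Hoxd9, Cxcl12, Cxcl10 and Cx3cl1.

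Factors that signal to spermatogonia were lower in 14 of 30 tested and higher in 7, with a median of -0.49 (22 and 5 with germ cell scaling). Of those tested, 7 reached FPKM 1 in spermatogonia alone and 3 in the cultures alone. Gdnf itself was at 8.80 and 6.18 FPKM in spermatogonia and 0.703, 0.746 and 0.377 FPKM in the cultures (-2.39 ± 0.15, limma adjusted p = 8.6e-09), and Fgf2 at 0 to 0.884 FPKM, below the filter. The level of added protein does not show in these transcripts. Kitl, the ligand of KIT, was at 55.4 and 28.8 FPKM in spermatogonia and 1.60, 1.92 and 1.38 FPKM in the cultures (-3.96 ± 0.23, limma adjusted p = 4.2e-09). Wnt6 was at 62.3 and 45.9 FPKM in spermatogonia and 0.0719, 0.0302 and 0 FPKM in the cultures (-5.72 ± 0.21, limma adjusted p = 3.2e-11). Dhh, the hedgehog ligand of Sertoli cells, was at 55.2 and 36.8 FPKM in spermatogonia and 0.278, 0.156 and 0.136 FPKM in the cultures (-5.28 ± 0.25, limma adjusted p = 3.6e-10). Igf1 changed by -2.58 ± 0.13, limma adjusted p = 8.0e-10. Ligands that were higher were of another kind. Csf1, the macrophage growth factor, was at 5.72 and 4.32 FPKM in spermatogonia and 28.6, 21.6 and 17.3 FPKM in the cultures (1.95 ± 0.23, limma adjusted p = 7.3e-06). Hbegf, an EGF receptor ligand, was at 5.78 ± 0.377 FPKM in spermatogonia and 24.1 ± 2.52 FPKM in the cultures (1.89 ± 0.16, limma adjusted p = 2.3e-07). Fgf7, made by mesenchyme, was at 0.262 and 0.726 FPKM in spermatogonia and 6.32, 5.68 and 5.03 FPKM in the cultures (2.17 ± 0.18, limma adjusted p = 1.9e-07). Lif was at 0.389 and 0.514 FPKM in spermatogonia and 3.24, 8.35 and 2.51 FPKM in the cultures (1.84 ± 0.36, limma adjusted p = 5.5e-04). Of the matching receptors, 11 of 42 were higher and 18 lower (7 and 30 with germ cell scaling).

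Genes often used as markers of fibroblasts moved in both directions. Fibroblast genes were higher in 15 of 32 tested and lower in 8, with a median of 0.50 (11 and 13 with germ cell scaling), and their summed level overlapped between groups at 1736 and 1867 FPKM in spermatogonia and 2163, 1679 and 1355 FPKM in cultures. Postn, a matrix protein of fibroblasts, was at 5.21 and 4.52 FPKM in spermatogonia and 69.5, 35.97 and 44.3 FPKM in the cultures (3.07 ± 0.25, limma adjusted p = 1.4e-07). Thy1, a surface protein of fibroblasts and also of spermatogonial stem cells, was at 0.993 and 1.18 FPKM in spermatogonia and 26.4, 16.3 and 23.2 FPKM in the cultures (3.44 ± 0.24, limma adjusted p = 3.1e-08). S100a4, known as fibroblast specific protein, was at 0.199 and 0.217 FPKM in spermatogonia and 87.1, 87.7 and 130.4 FPKM in the cultures (6.38 ± 0.19, limma adjusted p = 8.0e-12). Fbln2, a matrix protein, was at 12.1 ± 1.77 FPKM in spermatogonia and 104.9 ± 32.6 FPKM in the cultures (2.98 ± 0.28, limma adjusted p = 6.2e-07). Tnc, tenascin C, was at 0.0931 and 0.181 FPKM in spermatogonia and 157, 89.4 and 67.5 FPKM in the cultures (6.45 ± 0.36, limma adjusted p = 2.4e-09).

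Other fibroblast genes overlapped or were lower. Col1a1, the main collagen I chain, was at 104.5 and 121 FPKM in spermatogonia and 202.4, 142 and 78.1 FPKM in the cultures (limma adjusted p = 0.56). Dcn, decorin, was at 78.8 and 114 FPKM in spermatogonia and 104.7, 86.2 and 99.4 FPKM in the cultures (limma adjusted p = 0.96), with the groups overlapping for both. Pdgfra, a PDGF receptor of mesenchyme, was at 23.4 and 37.4 FPKM in spermatogonia and 5.58, 4.91 and 4.10 FPKM in the cultures (-2.39 ± 0.17, limma adjusted p = 3.6e-08). Cd34 was at 18.6 ± 5.06 FPKM in spermatogonia and 2.51 ± 1.02 FPKM in the cultures (-2.50 ± 0.27, limma adjusted p = 2.6e-06). Col6a1 was at 67.9 ± 15.9 FPKM in spermatogonia and 17.8 ± 7.02 FPKM in the cultures (-1.91 ± 0.27, limma adjusted p = 3.6e-05). Col3a1 was at 124.9 and 154 FPKM in spermatogonia and 68.6, 75.0 and 39.7 FPKM in the cultures (-1.22 ± 0.40, limma adjusted p = 0.019), which did not pass without either spermatogonia library or without culture replicate 3. Lum, lumican, was at 2.92 and 5.12 FPKM in spermatogonia and 7.59, 18.4 and 8.12 FPKM in the cultures (1.23 ± 0.39, limma adjusted p = 0.015) and did not pass with germ cell scaling, without spermatogonia replicate 1 or without culture replicate 2. Of all collagen chains, 6 of 33 were higher and 16 lower (6 and 22 with germ cell scaling).

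Transcription factors that mark position in the body wall and limb were higher in 15 of 20 tested and lower in 3, with a median of 1.37 (14 and 4 with germ cell scaling). Of the 43 listed, 20 passed the filter, 11 of them through the cultures alone, and 5 were at 0 in both spermatogonia libraries. Hoxb5 and Hoxb6, and Hoxb8 of the same HOXB cluster but not in the list, moved the same way. Hoxb5 was at 0.384 and 0.461 FPKM in spermatogonia and 11.7, 12.01 and 13.96 FPKM in the cultures (3.25 ± 0.17, limma adjusted p = 1.5e-09). Hoxb6 was at 0.293 and 0.594 FPKM in spermatogonia and 20.3, 24.5 and 37.7 FPKM in the cultures (4.26 ± 0.25, limma adjusted p = 3.7e-09). Hoxb8 was at 1.15 and 1.30 FPKM in spermatogonia and 34.8, 42.6 and 51.2 FPKM in the cultures (4.29 ± 0.16, limma adjusted p = 5.2e-11). En1, a homeobox factor of limb and midbrain, was at 0 and 0.102 FPKM in spermatogonia and 10.7, 8.66 and 11.4 FPKM in the cultures (3.41 ± 0.26, limma adjusted p = 5.7e-08). Tbx15, of limb and dermis, was at 0.208 and 0.124 FPKM in spermatogonia and 2.84, 2.50 and 2.68 FPKM in the cultures (1.66 ± 0.12, limma adjusted p = 3.9e-08). Prrx1, of limb mesenchyme, changed by 1.39 ± 0.15, limma adjusted p = 1.9e-06, and Twist1 was at 11.3 ± 1.83 FPKM in spermatogonia and 11.7 ± 2.43 FPKM in the cultures and overlapped (limma adjusted p = 0.88).

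Genes of the HOXD cluster in the same list went the other way. Hoxd9 was at 4.82 and 8.81 FPKM in spermatogonia and 0.177, 0.268 and 0.194 FPKM in the cultures (-2.64 ± 0.19, limma adjusted p = 3.5e-08). Hoxd8 was at 5.31 ± 0.941 FPKM in spermatogonia and 0.857 ± 0.376 FPKM in the cultures (-1.78 ± 0.17, limma adjusted p = 8.4e-07). These HOXB genes were higher and these HOXD genes lower in all 3 cultures than in either spermatogonia library.

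**Figure D3:**
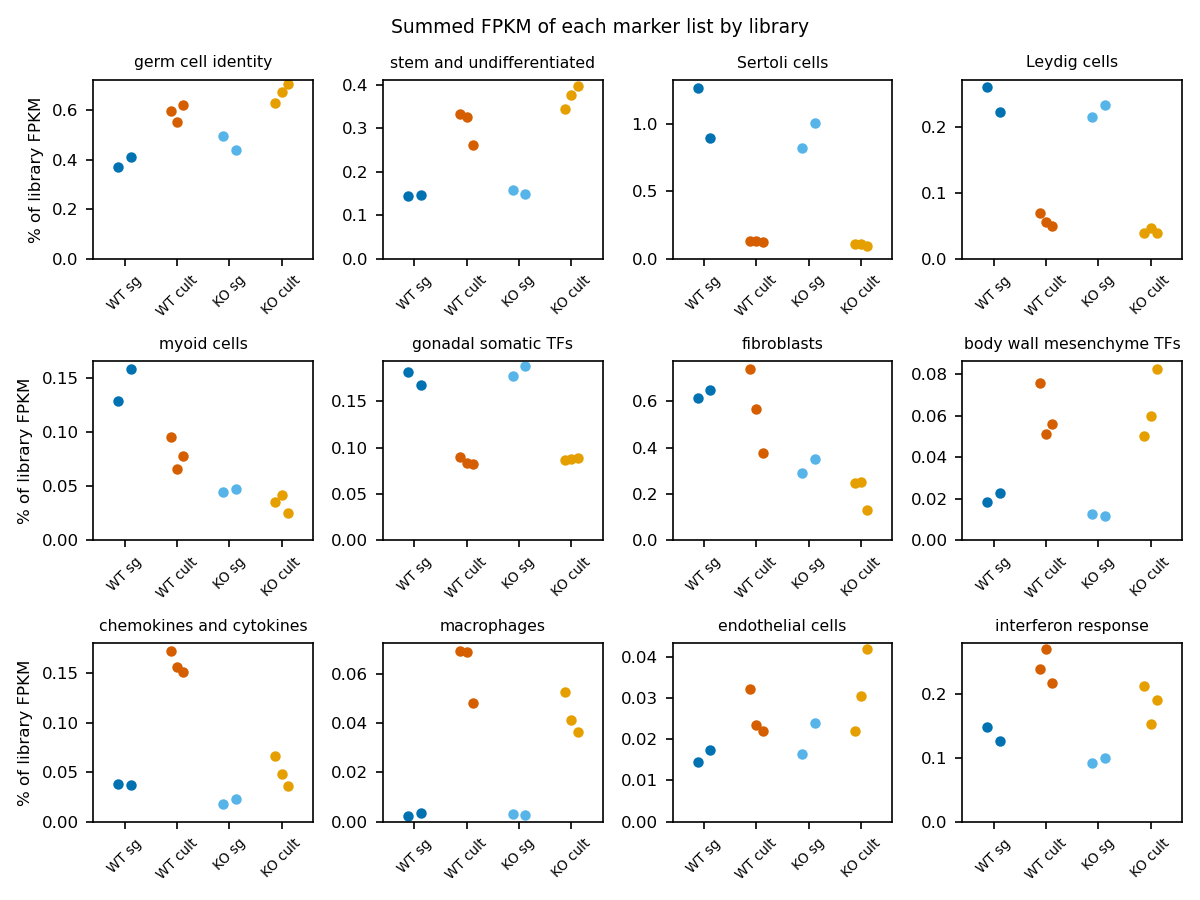
Summed FPKM of 12 marker lists as a percent of each library's total, for wildtype (WT) and knockout (KO) spermatogonia (sg) and cultures (cult), 1 point per library. Sertoli, Leydig and gonadal factor lists are lower in both genotypes' cultures, macrophage and body wall factor lists higher, and the chemokine list is highest in the wildtype cultures.

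Matrix enzymes were split, with 14 of 29 higher and 12 lower (13 and 13 with germ cell scaling). Mmp3, stromelysin, was at 0.1699 and 0.263 FPKM in spermatogonia and 162.6, 258 and 202 FPKM in the cultures (7.40 ± 0.26, limma adjusted p = 2.9e-11). Mmp13 was at 0 and 0 FPKM in spermatogonia and 9.19, 11.6 and 7.02 FPKM in the cultures, and Mmp10 at 0 and 0 FPKM in spermatogonia and 3.92, 2.84 and 3.26 FPKM in the cultures, so both were listed at 0 in spermatogonia (limma adjusted p of 2.0e-09 and 9.6e-09). Adamts5 and Mmp11 were lower, by -2.30 ± 0.19 and -1.47 ± 0.15 (SE).

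Laminins and basement membrane genes were lower in 11 of 21 and higher in 3, with a median of -0.77 (17 and 1 with germ cell scaling). Lama2 was at 15.1 and 22.3 FPKM in spermatogonia and 0.291, 0.164 and 0.0691 FPKM in the cultures (-4.05 ± 0.19, limma adjusted p = 3.6e-10). Lamc3 was at 13.5 ± 5.30 FPKM in spermatogonia and 0.0300 ± 0.0242 FPKM in the cultures (-3.76 ± 0.19, limma adjusted p = 6.6e-10). The collagen IV chains Col4a3 and Col4a4 changed by -2.41 ± 0.11 and -3.32 ± 0.15 (SE). Nid2, a nidogen that links laminin to collagen IV, was higher, at 18.7 and 23.97 FPKM in spermatogonia and 75.0, 68.7 and 43.8 FPKM in the cultures (1.48 ± 0.23, limma adjusted p = 7.6e-05), as was its relative Nid1 (0.99 ± 0.30, limma adjusted p = 0.013), which did not pass with germ cell scaling, without spermatogonia replicate 1 or without culture replicate 1. Of adhesion and surface markers, 16 of 36 were higher and 11 lower (9 and 17 with germ cell scaling).

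Chemokines and cytokines were higher in 19 of 22 tested and lower in 3, with a median of 1.83 (18 and 3 with germ cell scaling), and 14 of those tested reached FPKM 1 in the cultures alone. Ccl2, which attracts monocytes, was at 1.11 and 1.23 FPKM in spermatogonia and 158, 134 and 182 FPKM in the cultures (6.19 ± 0.19, limma adjusted p = 8.0e-12). Ccl7, its neighbour, was at 0.0939 and 0.413 FPKM in spermatogonia and 57.6, 44.1 and 75.7 FPKM in the cultures (5.56 ± 0.19, limma adjusted p = 2.2e-11). Ccl11, eotaxin, was at 0.0633 and 0.0699 FPKM in spermatogonia and 46.1, 22.3 and 53.2 FPKM in the cultures (5.19 ± 0.30, limma adjusted p = 3.1e-09). Ccl8 was at 0 and 0 FPKM in spermatogonia and 40.8, 30.02 and 52.6 FPKM in the cultures, listed at 0 in spermatogonia (limma adjusted p = 2.2e-10). Cxcl5, which attracts neutrophils, was at 0.0374 and 0.166 FPKM in spermatogonia and 26.03, 41.3 and 29.9 FPKM in the cultures (4.90 ± 0.31, limma adjusted p = 9.0e-09). Il1rl1, the IL-33 receptor, was at 0.0409 ± 0.0277 FPKM in spermatogonia and 16.1 ± 1.90 FPKM in the cultures (4.03 ± 0.25, limma adjusted p = 5.8e-09). The 3 lower members were Cxcl12, Cx3cl1 and Cxcl10. Cxcl12, the ligand of CXCR4, was at 21.1 and 32.3 FPKM in spermatogonia and 7.52, 9.86 and 5.70 FPKM in the cultures (-1.67 ± 0.29, limma adjusted p = 2.3e-04). Cx3cl1 was at 20.5 ± 2.90 FPKM in spermatogonia and 2.63 ± 0.766 FPKM in the cultures (-2.58 ± 0.19, limma adjusted p = 4.3e-08). Cxcl10, an interferon response chemokine, was at 12.6 and 9.41 FPKM in spermatogonia and 1.36, 1.80 and 2.002 FPKM in the cultures (-2.14 ± 0.17, limma adjusted p = 8.4e-08). Ccl2, Ccl7, Ccl8 and Ccl11 lie in 1 gene cluster and are related in sequence, so short reads may be divided unevenly between them.

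The gene with the largest change was an acute phase gene. Saa3, serum amyloid A3, was at 0.356 and 0.388 FPKM in spermatogonia and 309.7, 399 and 392 FPKM in the cultures, a change of 8.06 ± 0.25, limma adjusted p = 8.9e-12. The cultures were all within 100 FPKM of each other, and spermatogonia were below 1 FPKM. Apod, apolipoprotein D, was at 0.0706 ± 0.0537 FPKM in spermatogonia and 20.97 ± 6.81 FPKM in the cultures (4.31 ± 0.26, limma adjusted p = 6.5e-09).

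Of 21 macrophage genes 11 were tested, 8 of them because of the cultures alone, and 11 were higher, with a median of 1.37 (9 higher and 0 lower with germ cell scaling). Lyz2, lysozyme, was at 0.646 and 1.57 FPKM in spermatogonia and 161, 156 and 139.6 FPKM in the cultures (6.22 ± 0.20, limma adjusted p = 1.2e-11). Ccl6, a chemokine gene that is not in this list, was at 0 and 0.147 FPKM in spermatogonia and 23.7, 28.1 and 21.6 FPKM in the cultures (4.56 ± 0.21, limma adjusted p = 2.6e-10). Tyrobp, the DAP12 adaptor, was at 0 and 0.523 FPKM in spermatogonia and 6.12, 9.21 and 4.501 FPKM in the cultures (2.58 ± 0.31, limma adjusted p = 6.1e-06). Ctss, cathepsin S, was at 0.237 and 0.472 FPKM in spermatogonia and 4.96, 9.48 and 6.71 FPKM in the cultures (2.54 ± 0.23, limma adjusted p = 4.5e-07). Cd14 was at 0.577 ± 0.0410 FPKM in spermatogonia and 4.96 ± 1.11 FPKM in the cultures (1.90 ± 0.21, limma adjusted p = 2.6e-06). Cd68 was at 1.91 ± 0.0815 FPKM in spermatogonia and 5.49 ± 2.11 FPKM in the cultures (1.11 ± 0.20, limma adjusted p = 3.3e-04), and did not pass with germ cell scaling (0.44). Csf1r, the receptor for CSF1 and the defining gene of the lineage, was at 0.0439 and 0.422 FPKM in spermatogonia and 0.866, 0.870 and 0.459 FPKM in the cultures, below the filter. The summed level of the list was 6.3 and 10.4 FPKM in spermatogonia and 201, 203 and 174 FPKM in the cultures, most of it from Lyz2.

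Interferon response genes were higher in 22 of 30 tested and lower in 2, with a median of 1.17 (16 and 8 with germ cell scaling), and 10 of those tested reached FPKM 1 in the cultures alone. Isg15, a ubiquitin-like protein, was at 0 and 0.335 FPKM in spermatogonia and 13.98, 18.8 and 18.01 FPKM in the cultures (3.94 ± 0.19, limma adjusted p = 5.6e-10). Gbp2, a guanylate-binding protein, was at 0.959 and 0.797 FPKM in spermatogonia and 27.04, 34.1 and 23.5 FPKM in the cultures (3.94 ± 0.25, limma adjusted p = 7.9e-09), and its relative Gbp3 at 1.196 ± 0.407 FPKM in spermatogonia and 12.2 ± 1.36 FPKM in the cultures (2.60 ± 0.24, limma adjusted p = 5.3e-07). Psmb9, an immunoproteasome subunit, changed by 2.99 ± 0.22, limma adjusted p = 5.4e-08, Ifih1 (MDA5), a sensor of double-stranded RNA, by 1.95 ± 0.12, limma adjusted p = 6.5e-09, and Oas1a by 2.21 ± 0.16, limma adjusted p = 5.3e-08. Bst2, tetherin, was at 14.3 and 21.3 FPKM in spermatogonia and 52.4, 58.2 and 70.9 FPKM in the cultures (1.73 ± 0.29, limma adjusted p = 1.6e-04). The 2 lower genes were Cxcl10 and Irgm1, the latter at 20.6 and 7.57 FPKM in spermatogonia and 7.17, 6.10 and 8.85 FPKM in the cultures (-0.71 ± 0.27, limma adjusted p = 0.037), where spermatogonia replicate 1 stood high and the groups overlapped. Without that library the change of Irgm1 was -0.05, and without spermatogonia replicate 2 it was -1.38. Stat2, the signal carrier itself, was at 4.75 ± 0.309 FPKM in spermatogonia and 5.07 ± 1.10 FPKM in the cultures and did not pass (limma adjusted p = 0.76). Ifit3 was at 0.569 and 0.124 FPKM in spermatogonia and 1.40, 0.476 and 1.004 FPKM in the cultures (0.53 ± 0.17, limma adjusted p = 0.016), and did not pass without spermatogonia replicate 2, where the change was 0.29, or without culture replicate 1, or with germ cell scaling (0.22).

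The promoters of these genes were read from RefSeq (GRCm38.p6), from 250 bases before to 50 after each gene's start, and searched on both strands for GAAA and GAAAC with 2 bases of any kind between them, a word taken from the interferon-stimulated response element. It was in 13 of 29 promoters of the list (44.8%) and in 255 of 27025 promoters of all genes (0.944%). Of the 20 higher genes with a promoter in the table, 9 held it, a share close to that of the whole list. To show the word beside the values above, the 30 bases around the first match are given for 8 members, on the strand of the gene, with the match in capitals. Not every match in the list is shown, and the windows lie wholly before the gene start. They and the word were chosen after the values were seen, and Bst2, Gbp3, Ifit3 and Stat2 are named only for this. The genes below include higher and lower members and 1 that did not pass. A match is a description and not evidence of a bound site.
Gbp2: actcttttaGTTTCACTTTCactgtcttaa
Isg15: atgccgtagGAAAAGGAAACcgaaacagaa
Gbp3: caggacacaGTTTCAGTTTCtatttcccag
Bst2: gcattccagGAAAATGAAACtgaaaggctg
Ifit3: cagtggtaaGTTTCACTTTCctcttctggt
Stat2: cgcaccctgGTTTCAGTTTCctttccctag
Irgm1: ctgtttcaaGAAATAGAAACcgaaactgat
Cxcl10: cacgctttgGAAAGTGAAACttacctcact

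The windows lie at chr3:142620594-142620623 (Gbp2, plus strand), chr4:156200876-156200905 (Isg15, minus), chr3:142559989-142560018 (Gbp3, plus), chr8:71537582-71537611 (Bst2, minus), chr19:34583363-34583392 (Ifit3, plus), chr10:128270266-128270295 (Stat2, plus), chr11:48871430-48871459 (Irgm1, minus) and chr5:92349082-92349111 (Cxcl10, minus) of GRCm38.p6, a later build than the mm9 used for the FPKM. The match ended 19 bases before the gene start in Irgm1, 35 in Gbp3, 49 in Gbp2, 67 in Isg15, 119 in Bst2, 146 in Ifit3, 202 in Cxcl10 and 212 in Stat2. The same search was made for words of 5 other pathways. TGATGNAA, for amino acid response genes, was in 37% of their promoters and 4.51% of all, and TGACNNNGC, for oxidative stress genes, in 32% and 14%. The words for cholesterol genes (TCACNCCAC), heat shock (GAA, TTC and GAA, each 2 bases apart) and p53 (a pair of CATG 6 bases apart) were in 1 promoter of each list, and in 1.44%, 0.662% and 0.833% of all promoters.

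Immediate early and heat shock genes were lower in 22 of 31 and higher in 3, with a median of -1.67 (26 and 1 with germ cell scaling). Jun was at 107 and 96.7 FPKM in spermatogonia and 20.1, 17.2 and 13.6 FPKM in the cultures (-2.53 ± 0.16, limma adjusted p = 1.0e-08). Atf3, induced by stress, was at 32.2 and 30.5 FPKM in spermatogonia and 4.32, 4.78 and 3.996 FPKM in the cultures (-2.60 ± 0.19, limma adjusted p = 3.7e-08). Gadd45b, another stress gene, was at 118 and 91.4 FPKM in spermatogonia and 9.69, 8.63 and 8.97 FPKM in the cultures (-3.38 ± 0.13, limma adjusted p = 7.4e-11). Hspb1, a small heat shock protein, was at 137 and 124 FPKM in spermatogonia and 6.77, 5.03 and 7.86 FPKM in the cultures (-4.14 ± 0.36, limma adjusted p = 2.3e-07). Klf6 changed by -1.76 ± 0.15, limma adjusted p = 2.5e-07. The higher members included Hsph1, a chaperone of the HSP110 family (1.06 ± 0.14, limma adjusted p = 1.3e-05), and Dusp1, a phosphatase (0.84 ± 0.16, limma adjusted p = 5.6e-04). Neither passed with germ cell scaling (0.19 and -0.05).

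Cell cycle genes were higher more often than lower. Of the G1 and S phase list 19 of 38 were higher and 5 lower, with a median of 0.58, and of the G2 and M phase list 15 of 32 were higher and 1 lower, with a median of 0.35. With germ cell scaling the counts were 4 and 14, and 0 and 18, so the direction of both lists depends on the reference. Uhrf1, which brings DNMT1 to replicating DNA, was at 28.1 and 33.5 FPKM in spermatogonia and 85.1, 97.3 and 76.5 FPKM in the cultures (1.46 ± 0.15, limma adjusted p = 1.6e-06). Top2a, the replication topoisomerase, was at 43.4 ± 0.193 FPKM in spermatogonia and 94.9 ± 9.38 FPKM in the cultures (1.11 ± 0.12, limma adjusted p = 2.3e-06), and did not pass with germ cell scaling (0.21). Mki67 was at 21.2 and 18.8 FPKM in spermatogonia and 31.6, 38.7 and 20.2 FPKM in the cultures (limma adjusted p = 0.061). Cdk1 was at 17.03 ± 0.0885 FPKM in spermatogonia and 15.2 ± 3.75 FPKM in the cultures (limma adjusted p = 0.45), with overlap between groups for both. The 1 lower mitosis gene was Kif23, a kinesin of cytokinesis (-0.61 ± 0.14, limma adjusted p = 0.0021).

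Inhibitors of the cell cycle were divided. Cdkn1a (p21), a p53 target, was at 8.07 and 7.10 FPKM in spermatogonia and 53.5, 61.4 and 54.5 FPKM in the cultures (2.74 ± 0.20, limma adjusted p = 3.9e-08). Cdkn2b (p15) was at 2.01 ± 0.245 FPKM in spermatogonia and 11.3 ± 1.14 FPKM in the cultures (2.03 ± 0.19, limma adjusted p = 4.5e-07). Cdkn1b (p27) was at 11.5 and 10.54 FPKM in spermatogonia and 6.10, 1.82 and 1.04 FPKM in the cultures (-1.80 ± 0.39, limma adjusted p = 0.0012). Cdkn2c (p18) was at 10.2 and 10.4 FPKM in spermatogonia and 0.152, 1.39 and 0.745 FPKM in the cultures (-2.75 ± 0.22, limma adjusted p = 9.1e-08). All 3 cultures lay above spermatogonia for p21 and p15, and below for p27 and p18.

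Targets of p53 were higher in 14 of 25 and lower in 2, with a median of 0.68 (6 and 10 with germ cell scaling). Pmaip1 (NOXA), a promoter of cell death, was at 11.04 and 9.29 FPKM in spermatogonia and 64.0, 93.5 and 104.7 FPKM in the cultures (2.96 ± 0.27, limma adjusted p = 5.0e-07). Ccng1, cyclin G1, was at 8.60 and 8.57 FPKM in spermatogonia and 38.6, 47.7 and 48.8 FPKM in the cultures (2.26 ± 0.15, limma adjusted p = 1.5e-08). Tnfrsf10b, a death receptor, changed by 1.52 ± 0.17, limma adjusted p = 4.2e-06, and Trp53 itself was at 22.03 ± 1.01 FPKM in spermatogonia and 49.95 ± 5.42 FPKM in the cultures (1.14 ± 0.13, limma adjusted p = 4.9e-06, and 0.26 with germ cell scaling, which did not pass). Gadd45a was lower, at 85.0 and 52.6 FPKM in spermatogonia and 11.7, 9.05 and 17.2 FPKM in the cultures (-2.36 ± 0.25, limma adjusted p = 2.4e-06).

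Genes of cholesterol synthesis and uptake were higher in 22 of 25 and lower in 1, with a median of 1.15 (7 and 3 with germ cell scaling). Sqle, squalene epoxidase, was at 14.5 and 14.5 FPKM in spermatogonia and 54.2, 92.3 and 81.2 FPKM in the cultures (2.28 ± 0.19, limma adjusted p = 2.2e-07). Idi1 was at 17.5 and 17.3 FPKM in spermatogonia and 54.8, 104 and 128 FPKM in the cultures (2.31 ± 0.25, limma adjusted p = 2.9e-06). Culture replicate 1 was the lowest culture for both. Cyp51 and Nsdhl, later enzymes, changed by 2.16 ± 0.27 and 1.58 ± 0.20 (SE). Ebp, a sterol isomerase, was the lower member, at 5.07 ± 0.424 FPKM in spermatogonia and 2.38 ± 0.886 FPKM in the cultures (-0.88 ± 0.23, limma adjusted p = 0.0046).

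Other metabolic lists were nearer to the background. Amino acid response genes were higher in 15 of 31 and lower in 3, with a median of 0.36 (3 and 14 with germ cell scaling). Nupr1, a stress-induced chromatin protein, was at 1.35 and 1.18 FPKM in spermatogonia and 19.8, 20.8 and 18.95 FPKM in the cultures (3.20 ± 0.35, limma adjusted p = 2.4e-06), Cars, cysteinyl-tRNA synthetase, changed by 1.80 ± 0.13, limma adjusted p = 4.0e-08, and Shmt2, the mitochondrial serine hydroxymethyltransferase, by 1.33 ± 0.15, limma adjusted p = 3.7e-06. Glycolysis genes were higher in 7 of 25 and lower in 3 (1 and 14 with germ cell scaling). Ldhb, the heart form of lactate dehydrogenase, was at 108 and 81.9 FPKM in spermatogonia and 6.21, 6.66 and 6.505 FPKM in the cultures (-3.67 ± 0.46, limma adjusted p = 1.1e-05), and Aldoc changed by 1.16 ± 0.19, limma adjusted p = 1.6e-04, which did not pass with germ cell scaling (0.29).

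Oxidative stress genes were higher in 12 of 27 and lower in 4 (4 and 14 with germ cell scaling). Srxn1, sulfiredoxin, was at 2.33 and 2.41 FPKM in spermatogonia and 17.2, 20.3 and 14 FPKM in the cultures (2.41 ± 0.24, limma adjusted p = 9.3e-07). Txnrd1, thioredoxin reductase, was at 36.7 ± 1.34 FPKM in spermatogonia and 101.4 ± 10.8 FPKM in the cultures (1.44 ± 0.13, limma adjusted p = 5.3e-07). Glutathione transferases were lower, with Gstm1 at 353 and 272 FPKM in spermatogonia and 14.1, 11.6 and 12.3 FPKM in the cultures (-4.51 ± 0.48, limma adjusted p = 2.0e-06). Gstm2 was at 260.0 and 201 FPKM in spermatogonia and 3.05, 2.72 and 3.19 FPKM in the cultures (-5.85 ± 0.38, limma adjusted p = 1.3e-08), and reads may be divided between these near copies. Me1, malic enzyme, changed by -2.41 ± 0.15, limma adjusted p = 9.3e-09. Nucleolar genes were higher in 10 of 26 and lower in 1 (0 and 16 with germ cell scaling). Ribosomal protein genes were higher in 13 of 78 and lower in 3, with a median of 0.17, and with germ cell scaling 1 was higher and 53 lower, with a median of -0.68. Without culture replicate 3, which had the high ribosomal sum, 5 were higher and 7 lower, and their many pseudogene copies make these levels uncertain.

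Among targets of TGF-beta, BMP and activin, 11 of 26 were higher and 8 lower (10 and 13 with germ cell scaling). Grem1, a BMP antagonist, was at 0 and 0.0419 FPKM in spermatogonia and 16.7, 25.3 and 6.03 FPKM in the cultures (3.86 ± 0.44, limma adjusted p = 4.0e-06). Id2, a BMP target, was at 55.3 and 37.7 FPKM in spermatogonia and 5.74, 6.45 and 4.25 FPKM in the cultures (-2.86 ± 0.26, limma adjusted p = 4.4e-07).

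Of the DNA methylation enzymes 6 of 17 were higher and 5 lower (2 and 12 with germ cell scaling), near the shares over all members, 30.9% and 22.7%. Dnmt1, the maintenance methyltransferase, was at 52.5 and 58.1 FPKM in spermatogonia and 113.7, 111 and 72.6 FPKM in the cultures (0.80 ± 0.17, limma adjusted p = 0.001, and -0.09 with germ cell scaling). Dnmt3l, the cofactor of de novo methylation, was at 0.519 and 0.410 FPKM in spermatogonia and 2.12, 1.74 and 1.82 FPKM in the cultures (0.98 ± 0.18, limma adjusted p = 3.9e-04). Tet2 and Tet3, which oxidize methylcytosine, were lower. Tet2 was at 3.82 and 3.19 FPKM in spermatogonia and 0.528, 0.628 and 0.195 FPKM in the cultures (-1.64 ± 0.13, limma adjusted p = 9.9e-08). Tet3 was at 12.2 ± 1.59 FPKM in spermatogonia and 4.23 ± 1.24 FPKM in the cultures (-1.36 ± 0.20, limma adjusted p = 4.1e-05).

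Imprinted genes were lower in 14 of 32 and higher in 5, with a median of -0.54 (26 and 0 with germ cell scaling). Dlk1, a membrane protein related to the Notch ligands, was at 63.9 and 92.8 FPKM in spermatogonia and 3.53, 3.88 and 3.45 FPKM in the cultures (-4.08 ± 0.25, limma adjusted p = 5.7e-09). Peg10 was at 39.1 and 22.9 FPKM in spermatogonia and 3.05, 3.93 and 3.16 FPKM in the cultures (-2.82 ± 0.26, limma adjusted p = 3.9e-07). Meg3, the noncoding RNA next to Dlk1, was at 21.3 and 28.7 FPKM in spermatogonia and 16.5, 15.6 and 13.9 FPKM in the cultures (-0.66 ± 0.17, limma adjusted p = 0.004), a smaller change than that of Dlk1 and without a call when spermatogonia replicate 2 was left out. Zim1 changed by -1.75 ± 0.13, limma adjusted p = 3.9e-08. H19 was at 38.04 and 61.4 FPKM in spermatogonia and 45.1, 34.2 and 23.4 FPKM in the cultures and Igf2 at 24.1 and 36.5 FPKM in spermatogonia and 43.6, 38.9 and 19.99 FPKM in the cultures, and neither passed (limma adjusted p = 0.069 and limma adjusted p = 0.73). Igf2r, the receptor that clears IGF2, was higher, at 9.61 and 8.56 FPKM in spermatogonia and 35.8, 32.5 and 14.3 FPKM in the cultures (1.40 ± 0.28, limma adjusted p = 7.0e-04), and Inpp5f changed by 0.86 ± 0.16, limma adjusted p = 4.8e-04. Under germ cell scaling their changes were 0.56 and -0.0015 and neither passed.

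The 20 largest changes in each direction also held genes of no list. Among the higher, several encode proteins best known from neurons. Zic1, a zinc finger factor, was at 0.103 and 0.265 FPKM in spermatogonia and 65.7, 44.3 and 51.5 FPKM in the cultures (5.52 ± 0.18, limma adjusted p = 1.2e-11). Barhl2, a homeobox factor, was at 0.589 and 0.794 FPKM in spermatogonia and 43.3, 49.9 and 44.02 FPKM in the cultures (4.79 ± 0.18, limma adjusted p = 3.5e-11). Nefm, a neurofilament subunit, was at 2.56 and 1.66 FPKM in spermatogonia and 80.6, 94.5 and 80.1 FPKM in the cultures (4.80 ± 0.22, limma adjusted p = 2.6e-10). Crmp1, of growth cone signalling, was at 0.327 ± 0.0681 FPKM in spermatogonia and 25.3 ± 4.66 FPKM in the cultures (4.29 ± 0.18, limma adjusted p = 1.8e-10). Nxph4, a neurexophilin, was at 0.575 ± 0.343 FPKM in spermatogonia and 27.3 ± 3.44 FPKM in the cultures (4.18 ± 0.21, limma adjusted p = 9.0e-10). In each of the 5 genes the lowest culture was above 20 FPKM and both spermatogonia libraries were below 3 FPKM.

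Among the lower, most were at 50 FPKM or more in spermatogonia and below 1 FPKM in every culture. Of those named here, Aard, Cst12 and Cst9 belong to the Sertoli list and Akr1cl to the Leydig list. Aard was at 366 and 237 FPKM in spermatogonia and 0.297, 0.248 and 0.325 FPKM in the cultures, the largest decrease (-7.84 ± 0.60, limma adjusted p = 7.7e-08). The cystatins Cst12 and Cst9 were at 239 ± 52.9 FPKM in spermatogonia and 0.0759 ± 0.131 FPKM in the cultures, and 79.1 ± 9.38 FPKM in spermatogonia and 0.0405 ± 0.0701 FPKM in the cultures, respectively. Tmem184a, Prss35, a protease-like protein, and Islr2 changed by -6.12, -5.84 and -5.51, Wfdc10 and Defb19, of secreted host defence families, by -6.49 and -6.05, and Akr1cl, an aldo-keto reductase, by -6.49. Gatm, the first enzyme of creatine synthesis, was at 124 and 91.4 FPKM in spermatogonia and 0.838, 0.863 and 0.820 FPKM in the cultures (-5.87 ± 0.53, limma adjusted p = 3.7e-07). Ltbp4, which binds latent TGF-beta, was at 61.02 and 94.3 FPKM in spermatogonia and 0.769, 0.423 and 0.284 FPKM in the cultures (-5.70 ± 0.24, limma adjusted p = 1.4e-10). The other Sertoli cell markers mostly moved with these genes, and the part of Sertoli cells in each was not tested.

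The same contrast was made in the knockout, over 3 cultures and 2 spermatogonia libraries labelled with the same age of 6-7 dpp. They share no sample with the wildtype but share the fit's estimate of spread. Of the same genes 4048 (32.1%) were higher and 2784 (22.1%) lower, and 2636 were higher without knockout spermatogonia replicate 2. Genes higher in both genotypes numbered 3139, or 80.6% of the wildtype and 77.5% of the knockout calls, and genes lower in both numbered 2258, or 79% and 81.1%. Of the wildtype calls 9 higher and 5 lower genes were called in the opposite direction in the knockout.

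In the knockout, stem cell genes were higher in 24 and lower in 4 of 31, and GDNF response genes higher in 15 of 16. Genes of differentiating spermatogonia were higher in 2 of 19 and lower in 8, with a median of -0.62, where wildtype had 7 and 6. No gene of these 3 lists passed the test of the difference between genotypes. Lhx1 was at 1.06 and 0.537 FPKM in knockout spermatogonia and 35.3, 32.99 and 40.8 FPKM in the knockout cultures (4.38 ± 0.20, limma adjusted p = 4.2e-10). Nanos2 was at 0.837 and 0.932 FPKM in knockout spermatogonia and 7.12, 10.4 and 8.23 FPKM in the knockout cultures (2.33 ± 0.17, limma adjusted p = 5.5e-08). Kit was at 29.9 and 26.8 FPKM in knockout spermatogonia and 3.72, 2.34 and 1.66 FPKM in the knockout cultures (-3.08 ± 0.22, limma adjusted p = 4.8e-08). Stra8 was at 60.8 and 38.7 FPKM in knockout spermatogonia and 1.89, 2.67 and 0.216 FPKM in the knockout cultures (-4.40 ± 0.50, limma adjusted p = 4.2e-06). Sertoli cell genes were lower in 26 of 29, macrophage genes higher in 10 of 11. Crabp1 was an exception, with 102 and 100.6 FPKM in knockout spermatogonia and 55.3, 65.5 and 45.5 FPKM in the knockout cultures (-0.87 ± 0.32, limma adjusted p = 0.034), where the wildtype change was 0.92. The difference between the genotypes' changes for it did not pass (adjusted p = 0.067).

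**Figure D4:**
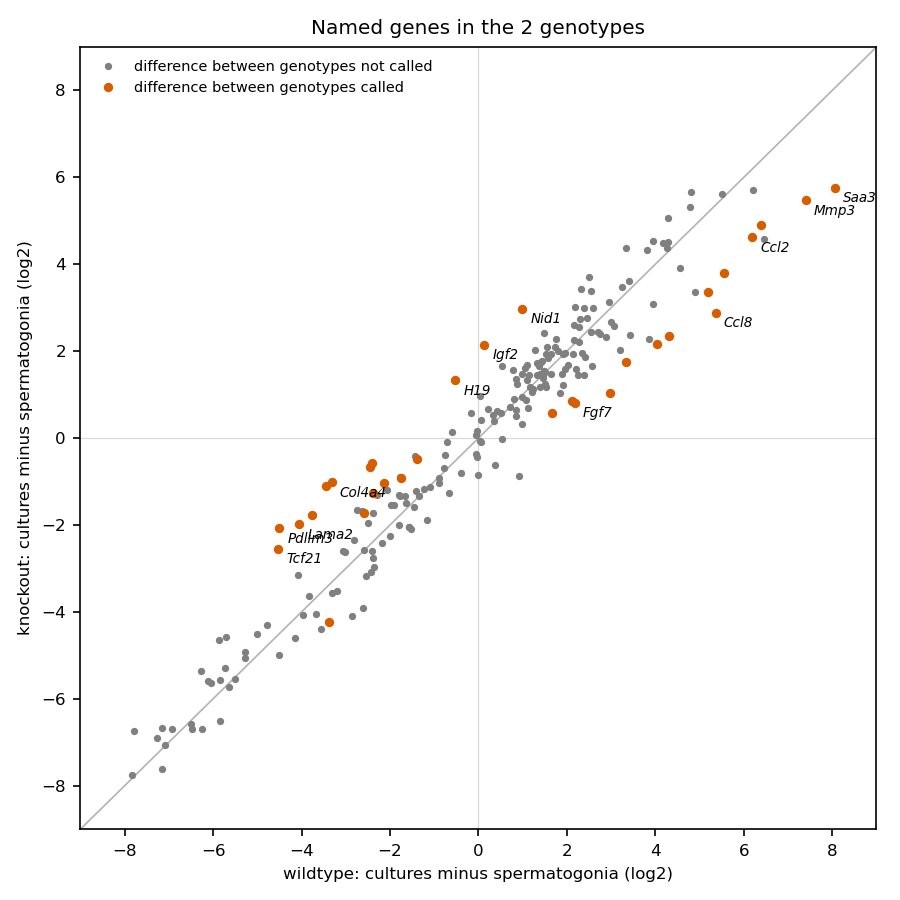
Change from spermatogonia to cultures in log2(FPKM + 1) for each named gene, wildtype on the horizontal and knockout on the vertical axis, with the diagonal of equal change. Orange points passed limma's test of the difference between genotypes, and Saa3, Mmp3 and Ccl2 lie below the diagonal while Pdlim3, Lama2 and Col4a4 lie above it.

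Tested directly, the change differed between genotypes for 217 of the 12611 genes (1.72%), more positive in the knockout for 130 (1.03%) and more negative for 87 (0.69%). This count depended on the pseudocount and the libraries fitted, with 5 genes at a pseudocount of 0.1, 36 when spermatocytes were left out, 108 without wildtype spermatogonia replicate 2, and 90 and 64 without knockout spermatogonia replicate 1 and 2. Saa3 was at 0.671 and 0.989 FPKM in knockout spermatogonia and 119, 65.7 and 120.1 FPKM in the knockout cultures, a smaller increase than in wildtype by -2.30 ± 0.36, limma adjusted p = 0.005. Ccl8 was at 0 and 0 FPKM in knockout spermatogonia and 7.80, 8.09 and 4.08 FPKM in the knockout cultures, with the difference at an adjusted p of 0.0019. Of the chemokines and cytokines 6 of 22 differed, Cxcl10 in the opposite direction to the rest. The summed level of the list was 463 to 545 FPKM in wildtype cultures and 112 to 191 FPKM in knockout cultures, against 106 and 107 FPKM in wildtype and 51.7 and 59.2 FPKM in knockout spermatogonia.

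Some other genes had a smaller log2 decrease in the knockout, where their level in spermatogonia was lower, Pdlim3 and Col4a4 among them. Wildtype means in spermatogonia and cultures were 25.6 and 0.147 FPKM for Pdlim3, and 9.48 and 0.0361 FPKM for Col4a4. Pdlim3 was at 3.57 and 3.40 FPKM in knockout spermatogonia and 0.147, 0 and 0.0492 FPKM in the knockout cultures, and Col4a4 at 1.40 and 0.864 FPKM in knockout spermatogonia and 0.0262, 0.0308 and 0.0871 FPKM in the knockout cultures. Myoid genes summed to 361 and 456 FPKM in wildtype spermatogonia and to 131 and 123 FPKM in knockout spermatogonia. The change differed for 5 of 17 myoid, 5 of 21 basement membrane and 4 of 33 collagen genes, against 1.72% of all members. The basement membrane and collagen lists overlap, and Col4a3 and Col4a4 are counted in both. The levels of these lists in spermatogonia were not tested between genotypes. Igf2 was at 9.44 and 8.58 FPKM in knockout spermatogonia and 43.7, 39.3 and 47.7 FPKM in the knockout cultures and H19 at 19.5 and 14.8 FPKM in knockout spermatogonia and 43.1, 41.4 and 48.0 FPKM in the knockout cultures, so in the knockout both were higher in the cultures (2.15 ± 0.27, limma adjusted p = 1.2e-05 and 1.33 ± 0.23, limma adjusted p = 2.6e-04), and the difference from wildtype was 2.03 ± 0.38, limma adjusted p = 0.017 for Igf2 and 1.86 ± 0.33, limma adjusted p = 0.012 for H19.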

How the data were processed

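RNA-seq was made from total RNA with a directional kit and sequenced on a HiSeq-X10, per the labels' protocols. The submitters' processing notes name Cufflinks 2.0.2, TopHat2 2.0.6 and build mm9, and neither order nor settings. The authors deposited 1 table of FPKM per library, with 23021 rows and 22552 distinct symbols. The 259 symbols listed more than once (728 rows) were left out, since rows could not be matched between libraries, and 25 symbols turned into dates were tested but are not named.

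FPKM are not counts, so log2(FPKM + 1) was tested with limma 3.58.1 (R 4.3.3), with a mean-variance trend and 1 mean for each of 6 groups of all 16 libraries (10 residual degrees of freedom). The 14485 fitted genes included all members, and p-values were adjusted by Benjamini-Hochberg over the 12611 members, with a threshold of 0.05, two-sided. The script was tested on simulated data. Tables were handled with Python 3.11.15 and pandas 2.3.3. Relative depth came from the commonest ratio between libraries of values below 0.08 FPKM, and absolute depth, which sets the precision of low values, is unknown.

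Named were the 20 largest passing changes each way with a mean of 5 FPKM or more and no overlap, up to 5 members of each list per direction, up to 3 that did not pass, and a roster. Some genes that this rule took are not reported here. The members and lists were chosen with earlier results of these data known. Alternatives were a pseudocount of 0.1, no filter and a stricter filter, 3 other scalings, smaller sets of libraries, a replicate block and each replicate left out. Spermatocytes entered the fit only. Sheet names inside the spermatogonia tables number replicates 1 and 2 as 2 and 3, and the numbers used here, also in the block, are those of the labels.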

Additional observations from a re-analysis of the deposited data

Results flagged for a closer look

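The results here stand out because limma's test of the difference found the change from spermatogonia to cultures to differ between knockout and wildtype, with p-values adjusted over all 12611 members. Values are the knockout minus the wildtype change in log2(FPKM + 1), over 3 cultures and 2 spermatogonia libraries of each genotype. With a pseudocount of 0.1, 5 genes passed this test in place of 217 (1.72% of all members).

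Some genes increased less in the knockout. In all, 6 of 22 chemokines and cytokines, 3 of 32 fibroblast genes and 3 of 29 matrix enzymes passed this test, Cxcl10 and Pdgfra with a difference of the opposite sign. The difference was -2.30 for Saa3 (limma adjusted p = 0.005), -2.47 for Ccl8 (limma adjusted p = 0.0019), -1.95 for Apod (limma adjusted p = 0.018), -1.93 for Fbln2 (limma adjusted p = 0.024), -1.92 for Mmp3 (limma adjusted p = 0.019), -1.87 for Il1rl1 (limma adjusted p = 0.015) and -1.83 for Ccl11 (limma adjusted p = 0.042). It was -1.76 for Ccl7 (limma adjusted p = 0.0049), -1.58 for Mmp13 (limma adjusted p = 0.0073), -1.56 for Ccl2 (limma adjusted p = 0.0086), -1.48 for S100a4 (limma adjusted p = 0.014), -1.36 for Fgf7 (limma adjusted p = 0.017), -1.26 for Mmp10 (limma adjusted p = 0.0041) and -1.08 for Tbx15 (limma adjusted p = 0.005). Gadd45b decreased more in the knockout (-0.85, limma adjusted p = 0.035).

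Other genes had a smaller log2 decrease in the knockout, among them members of the myoid list (5 of 17 passed this test) and of the basement membrane list (5 of 21). On this scale a decrease cannot exceed the starting level. Pdlim3 averaged 25.6 FPKM in wildtype and 3.48 FPKM in knockout spermatogonia, and 0.147 and 0.0655 FPKM in their cultures. Col4a4 averaged 9.48 and 1.13 FPKM in spermatogonia, and 0.0361 and 0.0480 FPKM in cultures. The spermatogonia levels were not tested between genotypes. The difference was 2.43 for Pdlim3 (limma adjusted p = 7.5e-04), 2.36 for Casq2 (limma adjusted p = 0.0013), 2.31 for Col4a4 (limma adjusted p = 1.1e-04), 2.07 for Lama2 (limma adjusted p = 0.0017), 2.00 for Lamc3 (limma adjusted p = 0.0017), 1.99 for Tcf21 (limma adjusted p = 0.0019) and 1.84 for Col4a3 (limma adjusted p = 8.1e-05). It was 1.78 for Myh11 (limma adjusted p = 0.0063), 1.12 for Pdgfra (limma adjusted p = 0.031), 1.10 for Cxcl10 (limma adjusted p = 0.03), 0.90 for Etv1 (limma adjusted p = 0.034), 0.85 for Igf1 (limma adjusted p = 0.033) and 0.83 for Zim1 (limma adjusted p = 0.031). Nid1 increased more in the knockout (1.99, limma adjusted p = 0.03), and Igf2 and H19 differed by 2.03 (limma adjusted p = 0.017) and 1.86 (limma adjusted p = 0.012).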

How the results depend on the processing

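Scaling to germ cell genes moved the calls most, to 934 higher and 8033 lower genes in wildtype and 942 and 7879 in the knockout. Genes called higher in wildtype ranged from 2591 to 3919 when 1 library was left out, and lower from 2197 to 2994. In the knockout the ranges were 2636 to 3762 and 2152 to 2628. The 217 genes that differed between genotypes became 5 with a pseudocount of 0.1, 354 with no filter, 131 with median-ratio scaling and 36 with the spermatocytes left out, by either smaller set of libraries, and 64 to 252 with 1 library left out. The causes were not tested. With the replicate number as a block, 3747 genes were higher and 2923 lower in wildtype, 3930 and 2894 in the knockout, and 152 differed between genotypes. Whether the samples are paired is not known. The r of deviations was 0.063 and -0.110 for libraries of the same label number. It was 0.110 for spermatogonia 1 with culture 2 and 0.118 for spermatogonia 2 with culture 3, the match if sheet numbers are used for spermatogonia. Deviations of 2 spermatogonia libraries mirror each other, so these values cannot settle a pairing.

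Of 227 named genes tested, 209 passed, 192 of these under every setting but germ cell scaling and 176 under every setting. With germ cell scaling the sign turned for Bcl6b (-0.0066), Sall4 (-0.37), Egr2 (-0.45), Spry4 (-0.066), Etv4 (-0.17), Ddx4 (-0.55), Piwil2 (-0.56), Sycp3 (-0.53), Syce1 (-0.019), Dnmt1 (-0.094), Igf2 (-0.76), Inpp5f (-0.0015), Pecam1 (-0.53), Col1a1 (-0.68), Dcn (-0.88), Twist1 (-0.81), Dusp1 (-0.051), Mki67 (-0.35) and Stat2 (-0.70). Of these Sall4, Egr2, Ddx4, Piwil2, Igf2, Pecam1, Dcn, Twist1 and Stat2 passed as lower there. Quantile normalization turned Fgfr3 (0.023), Dcn (-0.16), Twist1 (-0.042), median-ratio scaling Dcn (-0.055), Twist1 (-0.041), Stat2 (-0.0020), and the block Sox3 (0.075), Dcn (-0.028), Twist1 (-0.032). With 1 library left out the sign also turned for Foxo1 (-0.073 to 0.027), Lin28a (-0.10 to 0.059), Sox3 (-0.11 to 0.18), Fgfr3 (-0.22 to 0.12), Mael (-0.15 to 0.082), Igf2 (-0.16 to 0.46), Pecam1 (-0.089 to 0.17), Col1a1 (-0.093 to 0.59), Dcn (-0.24 to 0.29), Twist1 (-0.12 to 0.18), Stat2 (-0.056 to 0.21), none of which passed. With 2 spermatogonia libraries and unknown depth, differences of genes near 1 FPKM are the least certain.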
